A study of Homo sapiens with 36 samples.

Results

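The cells of this study were LoVo, an established human colorectal cancer line grown in F-12K medium with fetal bovine serum. For 24 hours they received a MEK inhibitor, in 10 doses between 0.03 and 1000 nM with 3 libraries each, or the solvent DMSO, with 6 libraries split evenly over a pair of sequencing chips. The genes described here are 29 of the 20802 genes counted. They encode enzymes and regulators of cholesterol and fatty acid synthesis and were all found among the rows of the count table. They comprise 7 enzymes of the mevalonate pathway, 9 enzymes that make squalene and turn it into cholesterol, 5 regulators and carriers, and 8 enzymes of fatty acid synthesis and desaturation. The line is a single cell culture model, and no other line was treated.

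Cells make cholesterol from acetyl-CoA. The mevalonate pathway builds farnesyl diphosphate, squalene synthase joins it to squalene, and a series of oxidations, reductions and isomerisations turns squalene into cholesterol. Fatty acid synthesis draws on the same cytosolic acetyl-CoA and, through desaturases and elongases, shapes the lipids of membranes. Many of these enzymes are transcribed under the sterol regulatory element binding proteins, SREBP-1 and SREBP-2, which SCAP escorts out of the endoplasmic reticulum when sterols are low and which INSIG proteins retain there when sterols are high. SREBP-2 is known chiefly for cholesterol genes and SREBP-1c for fatty acid genes. MEK, the target of the inhibitor, phosphorylates and switches on ERK at the end of the RAS and RAF cascade.

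Total counts per library ranged from 2972186 to 4751839. Levels are given as CPM, counts scaled to a common library size after correction for library composition. The number of counts also depends on how well each amplicon amplifies, so levels are compared between samples and not between genes. In RNA of whole cultures, fewer cells that express a gene and less RNA per cell cannot be told apart. DMSO values are means over 3 pairs of same-numbered libraries of the 2 chips, because those pairs differed less from each other than any other DMSO libraries did. A gene was called higher or lower when the quasi-likelihood test of edgeR, adjusted by Benjamini and Hochberg's method over the 12102 genes that passed the filter on low counts, gave an adjusted p below 0.05 against the DMSO libraries of either chip. Log2 fold changes against DMSO are given with their standard error (SE). The ERK-induced phosphatase gene DUSP6, a readout of MEK activity, averaged 1.89 ± 0.468 CPM at 1000 nM (SD, n = 3), 36.1 ± 1.27 CPM at 1 nM (SD, n = 3) and 64.2 ± 3.27 CPM in DMSO (SD, n = 3 pairs). Colon epithelial markers were present throughout, with a summed level of 2790 to 3003 CPM at 1000 nM, 2719 to 3162 CPM at 1 nM and 3051 to 3269 CPM in DMSO. The sum does not show opposite changes of single markers. At 1000 nM, CDX2, CDH1 and VIL1 were called higher, KRT8 and KRT18 lower, and EPCAM and KRT20 were not called. The 7 fibroblast markers summed to 41.0 to 42.4 CPM at 1000 nM, 9.31 to 9.77 CPM at 1 nM and 3.28 to 4.51 CPM in DMSO, with 2 of the 7 at 0 in every 1000 nM library. Their part in the results below was not tested. The 3 adipocyte markers summed to at most 1.97 CPM and the 3 hepatocyte markers to at most 1.09 CPM in any library.

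The libraries 0.1 nM replicate 2, 1 nM replicate 1 and 1000 nM replicate 1 stood apart from the other libraries of their own groups. Counts at 1 and 1000 nM, and single genes whose call was lost or whose value moved most, are also given without these 3 libraries, a step added after the data were seen.

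Of the 29 genes, 27 passed the filter on low counts. LSS, lanosterol synthase, averaged 0.369 ± 0.188 CPM at 1000 nM (SD, n = 3) and 0.692 ± 0.41 CPM in DMSO (SD, n = 3 pairs), and was not tested. ACSS2, which makes acetyl-CoA from acetate, averaged 0.335 ± 0.365 CPM at 1000 nM (SD, n = 3) and 0.146 ± 0.158 CPM in DMSO (SD, n = 3 pairs), and was not tested either.

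The first calls came at 1 nM, in genes of both pathways, and FADS2 was the only fatty acid gene called higher at 1000 nM. None of the 27 tested genes was called at 0.03, 0.1 or 0.3 nM, doses at which edgeR called 0% of all tested genes higher. At an unadjusted p below 0.05 there were 1, 0 and 3 of them at these doses, all higher, and DESeq2 called 0 at each. Of the 12102 tested genes, 42, 299 and 330 had such a p at these doses, in either direction. At 1 nM, 11 of the 27 were higher (40.7%, against 3.95% of all tested genes). The count was 14 at 3 nM (51.9%, against 6.66%), 15 at 10 nM (55.6%, against 13.5%) and 17 at 30 nM (63.0%, against 18%). It was 14 at both 100 nM (51.9%, against 18.4%) and 300 nM (51.9%, against 22.1%), and 11 at 1000 nM (40.7%, against 21.2%). Without the 3 libraries that stood apart it was 16 at each of 10, 30 and 100 nM, with the share of all tested genes not counted. Lower calls were few: FADS1 at 300 nM (1 of 27, against 23% of all tested genes) and PMVK at 1000 nM (3.70%, against 20.7%). No member was called lower at 1, 3, 10, 30 or 100 nM by edgeR or DESeq2, and at an unadjusted p below 0.05 there was 1, PMVK at 100 nM. At these 5 doses, in that order, 4.02%, 6.68%, 13.3%, 18% and 18.8% of all tested genes were called lower. At 100 nM, 5335 of the 12102 tested genes had an unadjusted p below 0.05, in either direction.

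In all, 19 genes were higher at one or more doses, 2 were lower at a dose, and 6 were called at none: NSDHL, SREBF1, SCAP, ACACA, ACLY and ELOVL6. The 7 genes higher at every dose from 1 nM were ACAT2, HMGCS1, MVK, FDPS, FDFT1, INSIG1 and SREBF2. All but the last pair act in cholesterol synthesis itself. Without the 3 libraries that stood apart, 11 genes were higher at 1000 nM and 11 at 1 nM, and 1 was called higher at 0.3 nM (SCD).

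**Figure D1:**
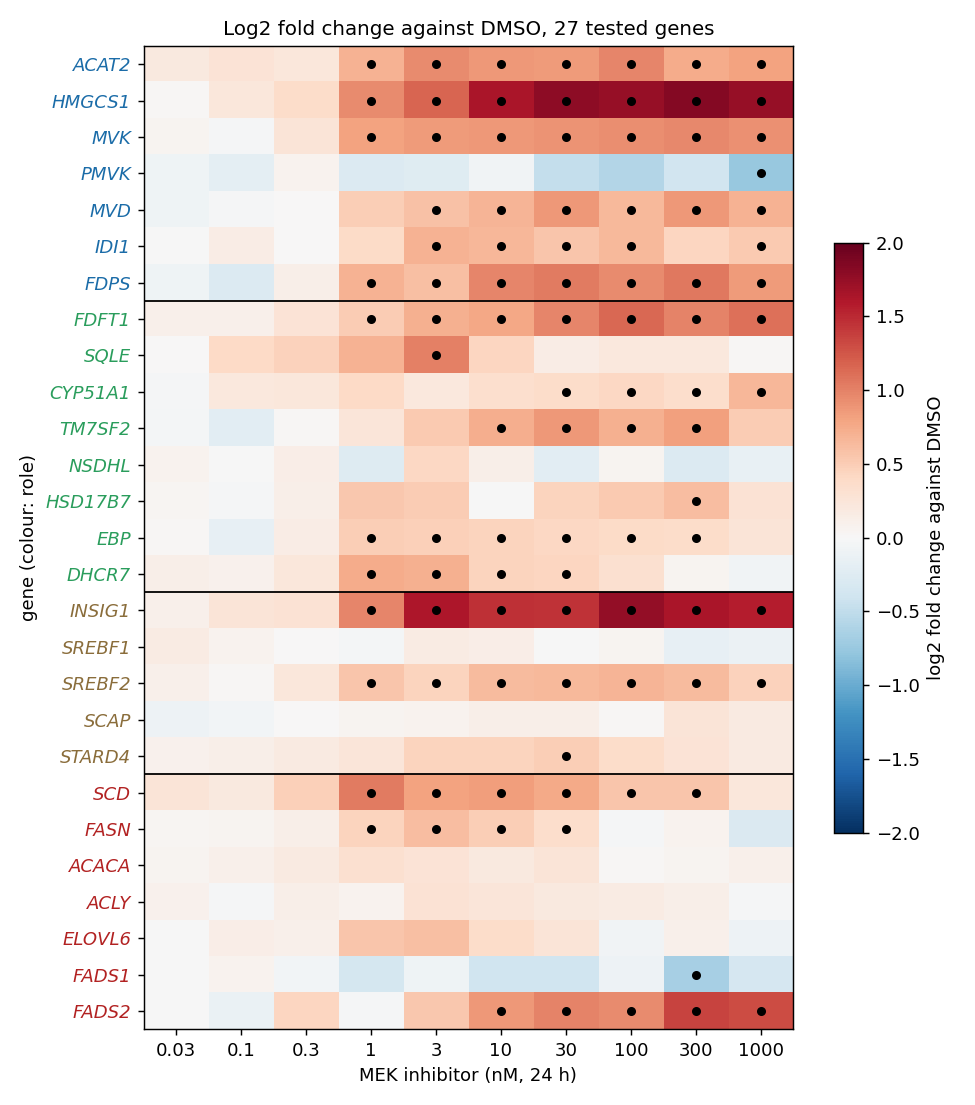
Log2 fold change against DMSO of the 27 tested genes (rows, grouped and coloured by role) at each dose of the MEK inhibitor in nM (columns). Black dots mark genes called higher or lower, and the dots begin at 1 nM, where 11 genes were higher.

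At 0.3 nM, below the first dose with any call, 26 of the 27 genes had a log2 fold change above 0, with a median of 0.15, against 51% of all tested genes and a median of 0.00. The 15 tested enzymes of cholesterol synthesis were all above 0 there. SCD, the stearoyl-CoA desaturase, had 309, 297 and 292 CPM at 0.3 nM, against a lowest, median and highest value of 201, 214 and 231 CPM in DMSO. Every 0.3 nM library was thus above every DMSO library, but the adjusted p for SCD was 0.521 with edgeR (log2 fold change 0.47, SE 0.0946). All doses share the same DMSO libraries, so the signs at neighbouring doses are not independent of each other.

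Among the enzymes of the mevalonate pathway, 6 of 7 rose at 1000 nM (85.7%, against 21.2% of all tested genes) and 4 of 7 at 1 nM (57.1%, against 3.95%). HMGCS1, the cytosolic HMG-CoA synthase, had 235, 186 and 190 CPM at 1000 nM, 93.8, 136 and 120 CPM at 1 nM, and 56.4, 60.0 and 67.9 CPM as the lowest, median and highest value in DMSO. The 3 groups did not overlap, and 1000 nM was highest. Its log2 fold change was 1.74 (SE 0.132) at 1000 nM, with an adjusted p of 1.38e-14, and 0.95 (SE 0.134) at 1 nM, with an adjusted p of 1.6e-05 (edgeR). Its mean was 60.9 CPM in DMSO, and over the doses from 0.03 to 1000 nM the means were 62.0, 71.2, 78.6, 117, 136, 189, 211, 205, 218 and 204 CPM. From 10 nM on, the means stayed between 189 and 218 CPM.

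MVK, mevalonate kinase, had 60.5, 33.1 and 25.8 CPM at 1000 nM, 31.0, 41.4 and 35.8 CPM at 1 nM, and 17.3, 21.5 and 23.0 CPM as the lowest, median and highest value in DMSO. Every library of these doses was above every DMSO library, and the high value at 1000 nM came from replicate 1, a library that stood apart. The log2 fold change was 0.92 (SE 0.191) at 1000 nM and 0.80 (SE 0.192) at 1 nM, with adjusted p of 0.000111 and 0.00531 (edgeR). Without the 3 libraries that stood apart the value at 1000 nM was 0.48, still called, and without replicate 1 of 1000 nM alone it was also 0.48. Without replicate 2 of 1 nM the adjusted p at 1 nM was 0.0563.

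FDPS, which makes farnesyl diphosphate, had 93.4, 97.1 and 61.8 CPM at 1000 nM, 93.8, 72.3 and 61.6 CPM at 1 nM, and 39.9, 47.2 and 54.6 CPM as the lowest, median and highest value in DMSO. Both doses lay above DMSO and overlapped each other. The log2 fold change was 0.85 (SE 0.148) at 1000 nM and 0.69 (SE 0.149) at 1 nM, with adjusted p of 9.57e-05 and 0.012 (edgeR). The call at 1 nM was lost without the 3 libraries that stood apart (adjusted p 0.0984), without replicate 1 of 1 nM alone (0.142) and without replicate 3 of DMSO chip 2 (0.0756).

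Of the other pathway members, ACAT2, MVD and IDI1 were also called higher at 1000 nM, and PMVK was not. ACAT2, which joins acetyl-CoA units at the entry to the pathway, was 28.2 ± 3.21 CPM at 1000 nM and 26.6 ± 5.68 CPM at 1 nM (SD, n = 3 each), against 16.1 ± 1.61 CPM in DMSO (SD, n = 3 pairs), and was called at both doses. Its call at 1 nM was lost without the 3 libraries that stood apart (adjusted p 0.0986), without replicate 1 of 1 nM alone (0.138) and without replicate 1 (0.0676) or replicate 3 (0.117) of DMSO chip 1. MVD, mevalonate diphosphate decarboxylase, was 36.8 ± 4.24 CPM at 1000 nM and 31.8 ± 3.92 CPM at 1 nM (SD, n = 3 each), against 22.7 ± 1.57 CPM in DMSO (SD, n = 3 pairs), called at 1000 nM, with an adjusted p of 0.0782 at 1 nM (0.0238 without the 3 libraries). IDI1, isopentenyl diphosphate isomerase, was 55.6 ± 11 CPM at 1000 nM and 50.5 ± 5.82 CPM at 1 nM (SD, n = 3 each), against 38.5 ± 3.18 CPM in DMSO (SD, n = 3 pairs). IDI1 was called at 1000 nM, but not at 1 or 300 nM. The call at 1000 nM was lost without replicate 2 of 1000 nM (adjusted p 0.149) or replicate 3 of DMSO chip 2 (0.117). PMVK, phosphomevalonate kinase, which acts between MVK and MVD, went the other way. It had 14.6, 17.3 and 10.9 CPM at 1000 nM, against a lowest, median and highest value of 19.4, 23.7 and 30.3 CPM in DMSO. The groups did not overlap, and the log2 fold change was -0.76 (SE 0.235, adjusted p 0.0204 with edgeR). That call was lost without replicate 3 of 1000 nM (adjusted p 0.127) or replicate 3 of DMSO chip 2 (0.146).

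The 8 tested enzymes from squalene synthesis to cholesterol split by dose. FDFT1, squalene synthase, had 305, 362 and 357 CPM at 1000 nM, 265, 214 and 199 CPM at 1 nM, and 143, 158 and 177 CPM as the lowest, median and highest value in DMSO. The 3 groups did not overlap. Its log2 fold change was 1.11 (SE 0.102) at 1000 nM and 0.51 (SE 0.102) at 1 nM, with adjusted p of 1.18e-12 and 0.00158 (edgeR). CYP51A1, the lanosterol demethylase, had 306, 203 and 311 CPM at 1000 nM, 257, 245 and 184 CPM at 1 nM, and 155, 167 and 204 CPM as the lowest, median and highest value in DMSO. One library of each dose fell within the DMSO range. CYP51A1 was called from 30 nM on, with a log2 fold change of 0.66 (SE 0.138) and an adjusted p of 0.000198 at 1000 nM, and an adjusted p of 0.0796 at 1 nM (edgeR).

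DHCR7, which reduces dehydrocholesterol to cholesterol, had 96.0, 104 and 82.5 CPM at 1000 nM, 159, 177 and 159 CPM at 1 nM, and 84.1, 100 and 107 CPM as the lowest, median and highest value in DMSO. All 1 nM libraries were above all 1000 nM and DMSO libraries, while 1000 nM overlapped DMSO. The log2 fold change was -0.07 (SE 0.114) at 1000 nM and 0.75 (SE 0.11) at 1 nM, with adjusted p of 0.966 and 1.61e-05 (edgeR). The mean was 98.3 CPM in DMSO, and in the order of the 10 doses the means ran 107, 104, 115, 165, 160, 134, 132, 122, 102 and 94.1 CPM. DHCR7 was called higher from 1 to 30 nM and at no higher dose.

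SQLE, squalene epoxidase, had 8.44, 13.2 and 9.89 CPM at 1000 nM, 15.5, 19.7 and 14.1 CPM at 1 nM, and 8.32, 10.1 and 13.3 CPM as the lowest, median and highest value in DMSO. It was called higher at 3 nM alone, where its mean was 20.6 ± 3.73 CPM (SD, n = 3) and its log2 fold change 1.00 (adjusted p 0.00717 with edgeR). EBP, a sterol isomerase, was 149 ± 14.2 CPM at 1000 nM and 174 ± 25.1 CPM at 1 nM (SD, n = 3 each), against 124 ± 5.57 CPM in DMSO (SD, n = 3 pairs), and was called at each dose from 1 to 300 nM. Its call at 1 nM was lost without replicate 1 of 1 nM (adjusted p 0.121) or replicate 2 of DMSO chip 2 (0.0519). TM7SF2, a sterol reductase, was called from 10 to 300 nM, with a highest log2 fold change of 0.87 at 30 nM, where 1 library had 76.7 CPM and the others 43.0 and 46.6 CPM. HSD17B7, a dehydrogenase of sterol demethylation, was called at 300 nM alone, with 19.9 ± 2.89 CPM (SD, n = 3) against 13.0 ± 0.601 CPM in DMSO (SD, n = 3 pairs). NSDHL, which acts in the same demethylation steps, was called at no dose and was 18.5 ± 6.52 CPM at 1000 nM (SD, n = 3) and 20.8 ± 0.383 CPM in DMSO (SD, n = 3 pairs).

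Among the regulators, INSIG1 and SREBF2 rose at every dose from 1 nM, and SREBF1 and SCAP were called at none. INSIG1, which retains the SCAP and SREBP complex in the endoplasmic reticulum and is itself a known SREBP target, had 120, 155 and 149 CPM at 1000 nM, 85.8, 93.1 and 101 CPM at 1 nM, and 42.7, 47.6 and 51.1 CPM as the lowest, median and highest value in DMSO. The 3 groups did not overlap. Its log2 fold change was 1.57 (SE 0.128) at 1000 nM and 0.97 (SE 0.13) at 1 nM, with adjusted p of 1.7e-14 and 1.97e-06 (edgeR). The mean of INSIG1 was 146 CPM at 3 nM and 93.4 CPM at 1 nM, and from 3 nM on it lay between 129 and 161 CPM.

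SREBF2, which encodes SREBP-2, had 266, 252 and 209 CPM at 1000 nM, 256, 236 and 290 CPM at 1 nM, and 169, 176 and 186 CPM as the lowest, median and highest value in DMSO. Every library of these doses was above every DMSO library, and the doses overlapped each other. The log2 fold change was 0.45 (SE 0.1) at 1000 nM and 0.56 (SE 0.1) at 1 nM, with adjusted p of 0.000408 and 0.000255 (edgeR). SREBF1, which encodes both forms of SREBP-1, was 86.0 ± 2.54 CPM at 1000 nM and 89.7 ± 5.04 CPM at 1 nM (SD, n = 3 each), against 92.9 ± 0.516 CPM in DMSO (SD, n = 3 pairs), and its log2 fold changes across the doses lay between -0.16 and 0.17. SCAP was 154 ± 14.7 CPM at 1000 nM (SD, n = 3) against 136 ± 1.33 CPM in DMSO (SD, n = 3 pairs). STARD4, a sterol carrier, was called at 30 nM alone, with 32.8 ± 3.14 CPM (SD, n = 3) against 23.4 ± 1.19 CPM in DMSO (SD, n = 3 pairs).

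Among the 7 tested fatty acid genes, SCD and FASN rose at 1 nM and FADS2 alone rose at 1000 nM. SCD, which introduces the double bond of monounsaturated fatty acids, had 276, 259 and 226 CPM at 1000 nM, 522, 423 and 392 CPM at 1 nM, and 201, 214 and 231 CPM as the lowest, median and highest value in DMSO. All 1 nM libraries were above all 1000 nM and DMSO libraries, and 1 of the 1000 nM libraries fell within the DMSO range. Its log2 fold change was 0.23 (SE 0.0953) at 1000 nM and 1.04 (SE 0.0949) at 1 nM, with adjusted p of 0.123 and 1.94e-10 (edgeR). SCD was called at each dose from 1 to 300 nM, and its mean was 216 CPM in DMSO. In the order of the 10 doses the SCD means were 258, 247, 299, 446, 376, 388, 366, 316, 319 and 254 CPM.

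FASN, the fatty acid synthase, had 240, 246 and 177 CPM at 1000 nM, 331, 367 and 391 CPM at 1 nM, and 224, 271 and 317 CPM as the lowest, median and highest value in DMSO. The 1 nM libraries lay above all 1000 nM and DMSO libraries, and the 1000 nM libraries reached below the DMSO range. The log2 fold change was -0.28 (SE 0.114) at 1000 nM and 0.44 (SE 0.112) at 1 nM, with adjusted p of 0.132 and 0.0273 (edgeR). FASN was called from 1 to 30 nM. The call at 1 nM was lost without replicate 2 (adjusted p 0.0824) or replicate 3 (0.117) of 1 nM, without replicate 2 (0.0977) or replicate 3 (0.204) of DMSO chip 1, and without replicate 2 of DMSO chip 2 (0.0519).

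FADS2, a desaturase of polyunsaturated fatty acids, had 44.5, 34.8 and 34.7 CPM at 1000 nM, 14.1, 21.9 and 8.83 CPM at 1 nM, and 11.3, 15.0 and 18.5 CPM as the lowest, median and highest value in DMSO. All 1000 nM libraries were above all 1 nM and DMSO libraries, and the 1 nM libraries spanned the DMSO range. The log2 fold change was 1.31 (SE 0.185) at 1000 nM and -0.02 (SE 0.205) at 1 nM, with adjusted p of 1.42e-06 and 0.846 (edgeR). FADS2 was called from 10 nM on, with means of 28.0, 30.6, 29.5, 39.2 and 38.0 CPM at the 5 doses from 10 to 1000 nM.

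FADS1, the partner desaturase, had means of 102 ± 43.9 CPM at 1000 nM and 103 ± 16.2 CPM at 1 nM (SD, n = 3 each), against 130 ± 6.76 CPM in DMSO (SD, n = 3 pairs), and its call of lower at 300 nM had a log2 fold change of -0.67 and an adjusted p of 0.0432 (edgeR), lost without replicate 1 or 3 of 300 nM or any library of DMSO chip 2. ACACA, which makes malonyl-CoA, was 50.4 ± 2.81 CPM at 1000 nM and 57.9 ± 15.8 CPM at 1 nM (SD, n = 3 each), against 47.1 ± 4.46 CPM in DMSO (SD, n = 3 pairs). Replicate 1 of 1 nM had 40.0 CPM of ACACA and the others 63.8 and 69.9 CPM, and without the 3 libraries that stood apart the log2 fold change at 1 nM was 0.50 (adjusted p 0.00291). ACLY, which makes cytosolic acetyl-CoA from citrate, was 192 ± 15.6 CPM at 1000 nM and 204 ± 42.7 CPM at 1 nM (SD, n = 3 each), against 195 ± 9.62 CPM in DMSO (SD, n = 3 pairs). ELOVL6, an elongase, was 6.79 ± 2 CPM at 1000 nM and 10.2 ± 3.85 CPM at 1 nM (SD, n = 3 each), against 7.11 ± 2.7 CPM in DMSO (SD, n = 3 pairs).

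**Figure D2:**
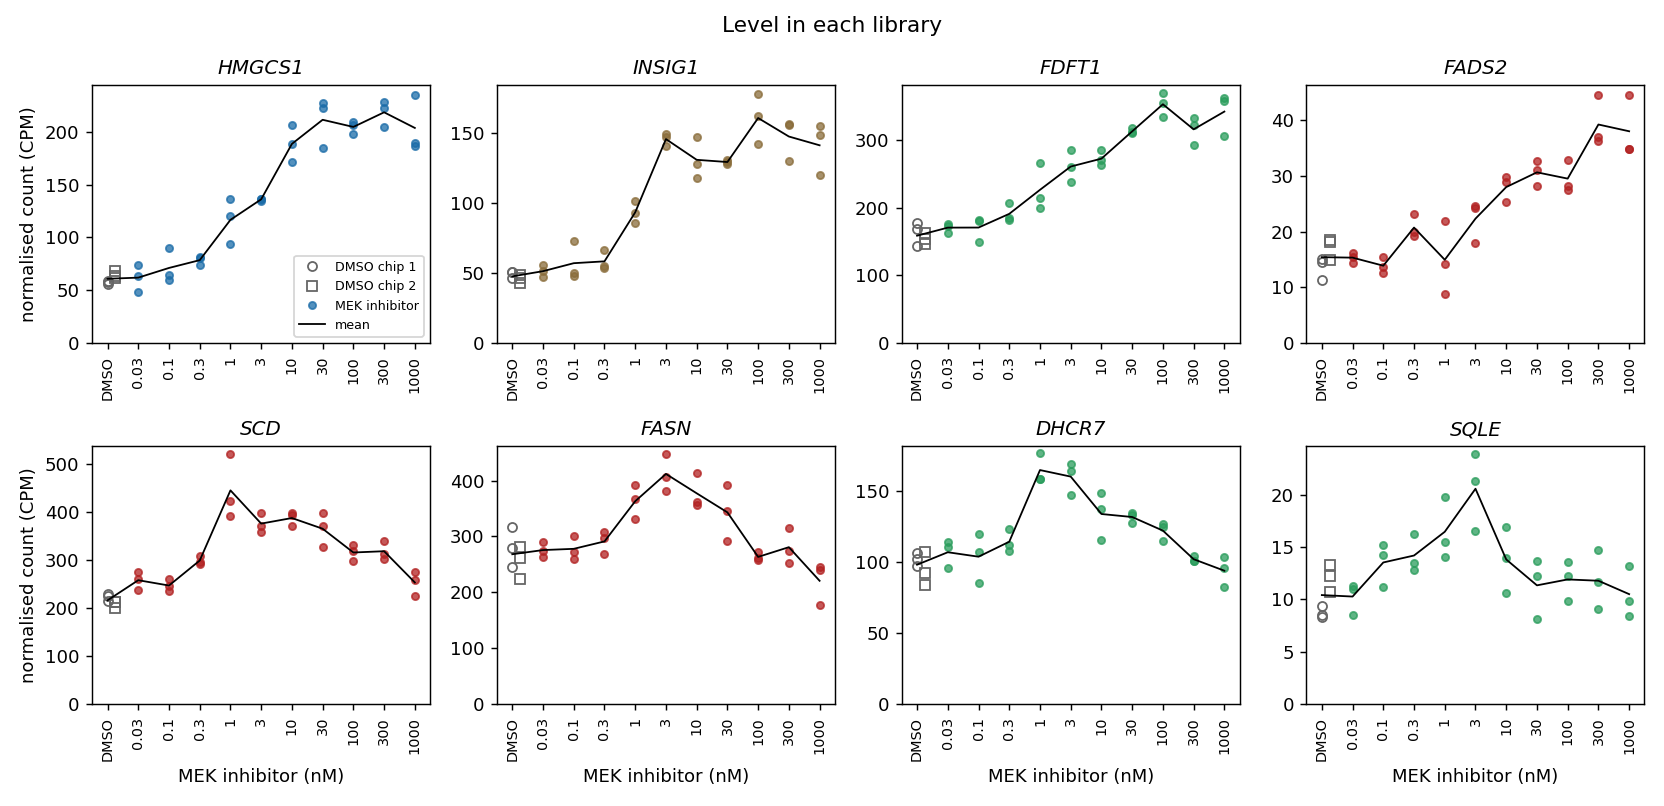
Level in each library, in CPM, of 8 genes that differed between 1000 and 1 nM, from DMSO (open grey circles, chip 1, and squares, chip 2) through the 10 doses in nM (filled points, coloured by role), with the black line through the means. HMGCS1, INSIG1, FDFT1 and FADS2 (top) were higher at 1000 nM than at 1 nM, and SCD, FASN, DHCR7 and SQLE (bottom) were lower, with maxima at 1 or 3 nM.

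The response at 1000 nM was then compared directly with that at 1 nM. Of the 27 genes, 4 were higher at 1000 nM (14.8%, against 20.4% of all tested genes) and 4 were lower (14.8%, against 20.6%), so both shares were below those of all genes. The median difference was 0.01 on the log2 scale, against 0.02 over all tested genes. Higher at 1000 nM were FADS2 with a log2 difference of 1.32 (SE 0.182, adjusted p 5.31e-08), HMGCS1 with 0.79 (SE 0.124, 9.79e-07), FDFT1 with 0.60 (SE 0.0988, 2.3e-06) and INSIG1 with 0.59 (SE 0.118, 5.69e-05), all by edgeR. Lower at 1000 nM were SCD with -0.81 (SE 0.0935, adjusted p 7.02e-10), DHCR7 with -0.81 (SE 0.109, 3.05e-08), FASN with -0.72 (SE 0.113, 7.88e-07) and SQLE with -0.66 (SE 0.215, 0.0114). In each of these 8 genes, the 3 libraries of 1000 nM did not overlap the 3 of 1 nM. The genes were picked by this same contrast, so the lack of overlap is no separate evidence. Its share among all tested genes was not counted.

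The labels do not give the chip of treated libraries. In the order of the samples, doses up to 3 nM follow DMSO of chip 1, and doses from 10 nM follow DMSO of chip 2. With 18 samples in a pool, 1 and 1000 nM may have been run on different chips. An effect of chip then cannot be told apart from an effect of dose in this contrast. When the difference between the DMSO chips was added in either direction, the adjusted p was 0.0628 for INSIG1 and 0.925 for SQLE, and the other 6 stayed called. Without the 3 libraries that stood apart, 4 genes were higher and 7 lower at 1000 nM: SQLE was no longer called (adjusted p 0.063), and PMVK (log2 difference -0.78), ACACA (-0.45), ELOVL6 (-0.93) and MVK (-0.40, against 0.12 with all libraries) were. SQLE also lost its call without replicate 2 of 1 nM (adjusted p 0.113) or replicate 1 of 1000 nM (0.0676). Leaving out 1 library at a time gave 3 to 8 genes lower (8 without replicate 1 of 1 nM) and 4 to 5 higher.

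**Figure D3:**
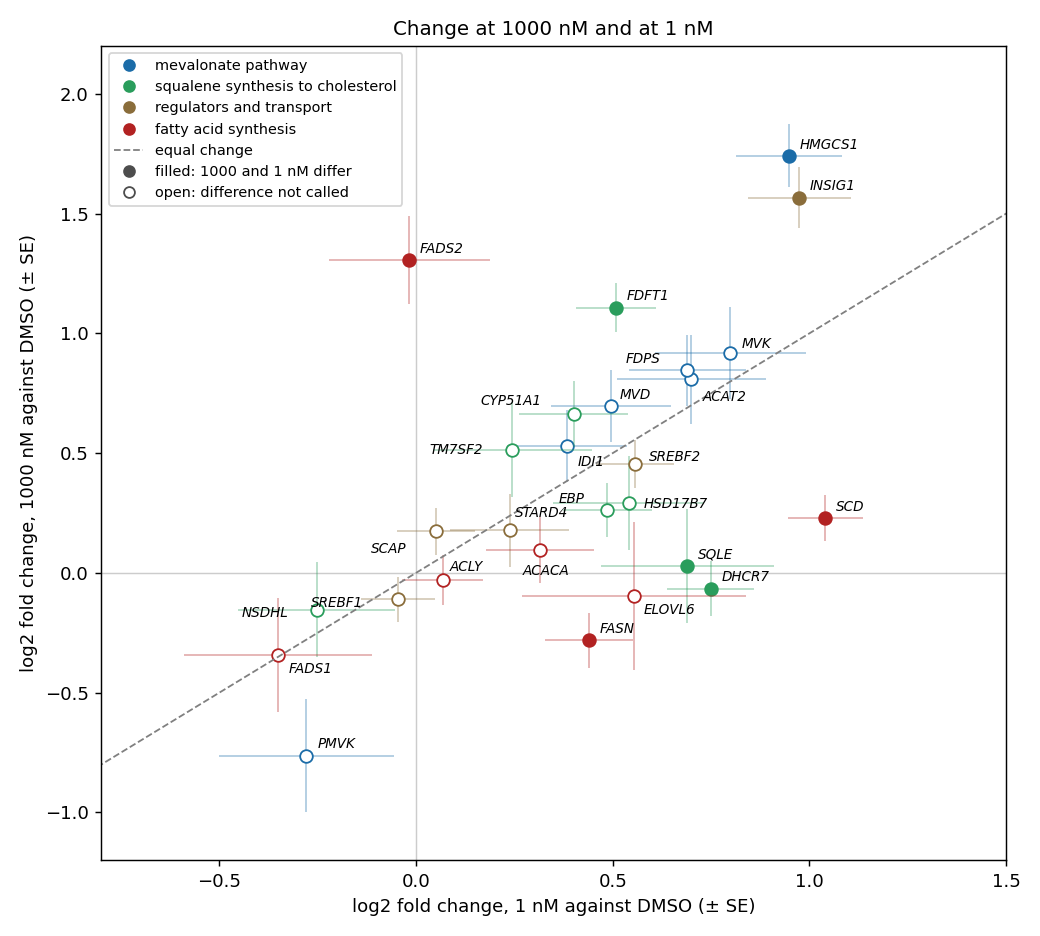
Log2 fold change at 1000 nM (vertical) and at 1 nM (horizontal) against DMSO for the 27 tested genes, coloured by role, with bars of 1 SE and a dashed line of equal change. Filled points are the 8 genes called between the 2 doses: FADS2, HMGCS1, FDFT1 and INSIG1 lie above the line, and SCD, DHCR7, FASN and SQLE below it.

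Sterol and fatty acid enzymes were set side by side at both doses. At 1000 nM, 8 of 15 tested sterol enzymes were higher (53.3%) and 1 lower (6.67%), with a median log2 fold change of 0.53. Of the fatty acid genes, 1 of 7 was higher (14.3%) and 0 lower, with a median of -0.03. Of all tested genes, 21.2% were higher and 20.7% lower at this dose, with a median of 0.01, so the fatty acid share was not above that of all genes. At 1 nM, 7 of 15 sterol enzymes were higher (46.7%), with a median of 0.51, and 2 of 7 fatty acid genes (28.6%), with a median of 0.32, against 3.95% of all tested genes with a median of 0.01. The sterol count at 1 nM was 12 against DMSO of chip 1 alone, 12 against the mean of both DMSO groups and 11 with DMSO pairs summed. It was 4 without replicate 1 of 1 nM. The share of all tested genes called in these alternatives was not counted, so these counts have no background to be read against. Of the 8 sterol enzymes higher at 1000 nM, 6 belong to the mevalonate pathway and the others are FDFT1 and CYP51A1. Calculated library by library against the DMSO mean, the sterol median lay at 0.42 to 0.49 in the 1000 nM libraries and at 0.41 to 0.59 in the 1 nM libraries. The fatty acid median lay at 0.07 to 0.12 in the 1000 nM libraries, a sign opposite to that of the fitted median. In the 1 nM libraries it was -0.11 in replicate 1, the library that stood apart, and 0.46 and 0.55 in the others.

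Without the 3 libraries that stood apart, the median at 1 nM was 0.39 for sterol enzymes, with 6 higher, and 0.50 for fatty acid genes, with 3 higher, so that the order of both sets at 1 nM turned. At 1000 nM the medians without them were 0.58 and -0.0003, with 8 and 1 genes higher. Counts and medians of both sets are descriptions of lists of unequal size, and no test of one list against the other was made.

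**Figure D4:**
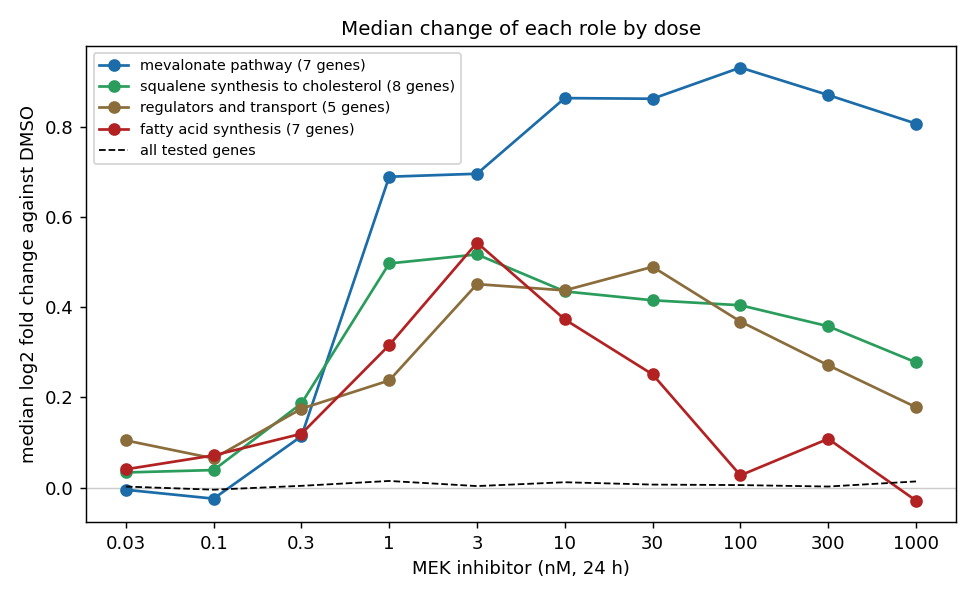
Median log2 fold change against DMSO by dose in nM for the genes of each role, with the median of all 12102 tested genes as a dashed line. The mevalonate median was 0.81 at 1000 nM and 0.69 at 1 nM, while the fatty acid median was -0.03 at 1000 nM and 0.32 at 1 nM.

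Promoter sequences are shown for 5 of the genes that the results turn on: HMGCS1 and INSIG1, which were higher at 1000 than at 1 nM, SCD and DHCR7, which were lower, and SREBF2, which was called at every dose from 1 nM. Each is the stretch of 250 bases before an annotated transcription start, from RefSeq with build GRCh38.p14, 5′ to 3′ on the strand of the gene. Capitals mark matches to 2 motifs searched on both strands: the box CCAAT bound by NF-Y, and TCACNCCAC, a form of the sterol regulatory element. A box on the opposite strand reads ATTGG here. The positions are chr5:43313413-43313662 on the minus strand for HMGCS1, chr7:155297628-155297877 on the plus strand for INSIG1, chr22:41832855-41833104 on the plus strand for SREBF2, chr10:100346983-100347232 on the plus strand for SCD and chr11:71448394-71448643 on the minus strand for DHCR7.
HMGCS1: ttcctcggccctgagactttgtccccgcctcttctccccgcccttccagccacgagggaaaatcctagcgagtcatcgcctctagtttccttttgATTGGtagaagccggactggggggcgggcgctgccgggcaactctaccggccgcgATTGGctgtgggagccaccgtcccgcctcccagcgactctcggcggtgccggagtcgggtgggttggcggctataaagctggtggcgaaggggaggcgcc
INSIG1: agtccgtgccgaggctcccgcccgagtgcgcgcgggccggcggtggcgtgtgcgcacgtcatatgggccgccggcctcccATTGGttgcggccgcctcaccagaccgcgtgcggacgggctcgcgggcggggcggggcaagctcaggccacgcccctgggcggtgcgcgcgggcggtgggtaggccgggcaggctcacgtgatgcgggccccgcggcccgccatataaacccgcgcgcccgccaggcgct
SREBF2: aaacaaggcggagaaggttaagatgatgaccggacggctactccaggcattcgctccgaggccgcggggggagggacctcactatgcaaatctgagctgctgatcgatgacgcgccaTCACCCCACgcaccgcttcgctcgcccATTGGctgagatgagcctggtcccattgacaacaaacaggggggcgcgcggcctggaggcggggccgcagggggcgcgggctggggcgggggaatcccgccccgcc
SCD: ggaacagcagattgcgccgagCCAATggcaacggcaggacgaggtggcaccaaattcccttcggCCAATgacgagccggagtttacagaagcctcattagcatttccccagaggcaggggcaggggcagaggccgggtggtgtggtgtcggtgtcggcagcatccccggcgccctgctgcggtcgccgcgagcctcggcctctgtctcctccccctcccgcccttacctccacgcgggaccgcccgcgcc
DHCR7: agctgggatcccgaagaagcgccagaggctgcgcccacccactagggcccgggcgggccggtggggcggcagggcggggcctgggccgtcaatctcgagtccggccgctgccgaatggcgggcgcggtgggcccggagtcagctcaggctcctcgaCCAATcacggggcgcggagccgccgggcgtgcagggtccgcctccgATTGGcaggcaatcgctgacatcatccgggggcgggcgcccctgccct
In the SREBF2 promoter the sterol element stood 18 bases before the NF-Y box. The table matched 25 of the 29 genes with 34 windows of this kind, and ACAT2, FDFT1, SQLE and FASN are named only. The NF-Y box was found in 21 of the 34 windows (61.8%), in 18 genes, against 32% of 35116 windows of the same length from all genes. The 34 windows are not independent. The 2 of ACLY overlap and share their boxes, and IDI1 and ACACA have 3 windows each. The windows of all genes were not limited to genes tested in these cells. The sterol element in these letters was found in SREBF2 alone among the 25, against 0.883% of all windows, and both motifs together in 0.231% of all windows. Of the promoters shown, HMGCS1, SCD and DHCR7 each had 2 NF-Y boxes and INSIG1 had 1. HMGCS1 and DHCR7 each have a second annotated window, not shown, in which neither motif was found. FADS2, the gene with the largest rise from 1 to 1000 nM, is not shown, and its 2 windows held neither motif. Neither motif was found for PMVK, CYP51A1, SREBF1, SCAP, ELOVL6 and FADS1 either.

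Other genes of these pathways were taken from a list of 48, of which 42 were tested. At 1000 nM, 16 were higher (38.1%) and 5 lower (11.9%), and at 1 nM 12 were higher (28.6%) and 1 lower (2.38%). Of all tested genes, 21.2% were higher and 20.7% lower at 1000 nM, and 3.95% and 4.02% at 1 nM. Of 8 tested genes of sterol synthesis and uptake, 4 were higher and 1 lower at 1000 nM, and 5 higher and 0 lower at 1 nM. MSMO1, a sterol oxidase, was 42.9 ± 11.4 CPM at 1000 nM and 35.1 ± 8.34 CPM at 1 nM (SD, n = 3 each), against 17.2 ± 2.28 CPM in DMSO (SD, n = 3 pairs), and was called higher at both.

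Of 18 tested genes of fatty acid synthesis and esterification, 5 were higher (27.8%, against 21.2% of all tested genes) and 2 lower (11.1%, against 20.7%) at 1000 nM. At 1 nM, 4 were higher (22.2%, against 3.95%) and 0 lower. The share higher at 1000 nM was near that of all genes. SCD5, a second stearoyl-CoA desaturase, was 76.4 ± 11.7 CPM at 1000 nM and 39.9 ± 5.04 CPM at 1 nM (SD, n = 3 each), against 35.6 ± 2.11 CPM in DMSO (SD, n = 3 pairs), and was called higher at 1000 nM against both. SCD5 thus was higher at 1000 nM than at 1 nM (log2 difference 0.94, SE 0.128), while SCD was lower. MLXIPL, which encodes the carbohydrate-responsive factor ChREBP, was called higher at both doses, with log2 fold changes of 0.74 at 1000 nM and 0.47 at 1 nM. The call at 1 nM was lost without replicate 1 of 1 nM (adjusted p 0.206) and without replicate 2 (0.0564) or replicate 3 (0.0726) of DMSO chip 1. ME1, an enzyme that supplies NADPH, fell to 39.6 ± 8.93 CPM at 1000 nM (SD, n = 3), against 75.5 ± 7.54 CPM in DMSO (SD, n = 3 pairs).

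Among 10 tested genes of fatty acid oxidation, 5 were higher and 1 lower at 1000 nM, a dose at which 21.2% of all tested genes were higher and 20.7% lower. At 1 nM, 3 were higher and 1 lower, against 3.95% and 4.02% of all tested genes. HADHA and HADHB, the subunits of the mitochondrial trifunctional protein, had log2 fold changes of 0.72 and 0.89 at 1000 nM, and CPT1A, which admits fatty acids to mitochondria, had -0.75, all called. The SREBP-processing proteases divided at 1000 nM, where MBTPS1 was higher (log2 fold change 0.50) and MBTPS2 lower (-0.80). INSIG2, the paralog of INSIG1, was 6.74 ± 4.37 CPM at 1000 nM and 4.6 ± 1.1 CPM at 1 nM (SD, n = 3 each), against 7.48 ± 0.599 CPM in DMSO (SD, n = 3 pairs), and was called at neither dose. ABCA1, a cholesterol exporter, was 4.37 ± 0.885 CPM at 1000 nM (SD, n = 3) against 1.75 ± 0.0875 CPM in DMSO (SD, n = 3 pairs), with an adjusted p of 0.041 by edgeR and 0.0764 by DESeq2. Leaving out any of 6 libraries in turn (replicates 2 and 3 of 1000 nM, replicate 2 of DMSO chip 1 and all of DMSO chip 2) took the adjusted p above 0.05, to at most 0.13.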

How the data were processed

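Total RNA of LoVo cells (10 ng per sample, per the labels' protocols) was converted to cDNA and sequenced as Ion AmpliSeq amplicons, short stretches amplified with primers for each gene, with 18 samples in a pool. The authors deposited whole-number counts per gene with no normalization. Per the submitters' processing notes the genome was hg19. Aligner and counter: not given in the sources used here. How the cultures of biological replicates were separated is not stated, so that p-values reflect only the variation among these libraries, which may be technical. Of 20812 rows, 10 spike-in rows held 0 counts and were left out. Amplicons shared by near-identical copies of a gene could split or share reads, and the strand setting of the counting is not given.

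Total counts per library were 2972186 to 4751839 (median 3952427). Counting error alone limits the precision of low genes, and amplified copies were not collapsed to molecules. Counts were fitted with edgeR 4.0.16 (R 4.3.3): filterByExpr with the groups (12102 genes kept), TMM scaling, and robust quasi-likelihood fitting of 12 groups over all 36 libraries (24 residual degrees of freedom). A dose was compared with each chip's DMSO libraries in turn, and the larger p-value was adjusted over all tested genes by Benjamini-Hochberg, and a call needed a value below 0.05 and both fold changes of the same sign. Printed fold changes use the average of the 2 DMSO groups as reference and the larger SE. The contrast of 1000 with 1 nM came from the same model. Library medians used log2 of CPM plus 0.25.

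Same-numbered DMSO libraries of the chips had a chi-square per degree of freedom of 1.53 to 1.58, against 2.07 to 2.70 for other numbers and 1.55 to 11.1 within groups. They were averaged as pairs in means and SDs (n = 3 pairs). In the tests all 6 were kept as separate libraries, and a fit with the pairs summed was an alternative.

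The genes, gene lists and tests were chosen with earlier results of these data known. Values in every library are given for the genes with the 2 smallest adjusted p at 1 and at 1000 nM in each role and the 3 smallest in each direction between these doses. PMVK and SQLE, and SCD at 0.3 nM, were chosen after their values were seen. Of the list of 48 other pathway genes, most named were called at 1 or 1000 nM, and INSIG2 was chosen afterwards. Some genes of that list are counted but not reported here by name. Alternatives were DESeq2 1.42.0, RLE scaling, no filter, a filter of 1 CPM in 3 libraries, other uses of the DMSO libraries, a replicate block, only the libraries compared, the chip difference, and 36 refits without 1 library each.

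The fit was tested on simulated counts of 11948 genes. For 1000 nM against DMSO it recovered 22%, 78%, 96% and 96% of 50 genes changed by 0.5, 1, 2 and 3 on the log2 scale, with 0 calls among unchanged genes. For 1000 against 1 nM it recovered 40%, 86%, 98% and 96%, with 8 such calls. These values describe the simulated counts only. In the data, 21.2% of tested genes were called higher and 20.7% lower at 1000 nM, far more than were changed here. Whether the recovery and the false calls carry over to the data was not tested. Blood cell markers (4 genes) summed to 4.99 to 20.8 CPM per library. Python 3.11.15 and matplotlib 3.10.9 made the tables and figures.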

Additional observations from a re-analysis of the deposited data

How the results depend on the processing

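Of 652 comparisons of counts and medians with an alternative, 594 kept their value within the limits set and 58 moved. A count was kept when its ratio to the main value stayed within a set limit, or when both were 0. A median was kept when it moved by less than the SD of the 3 library medians of that set and dose. For fatty acid genes at 1 nM that SD was 0.36, above the median of 0.32. All alternatives there were thus kept, also 0.50 without the 3 libraries that stood apart. Counts that were 0 and stayed 0 are among the 594, which does not measure robustness. Of 1458 comparisons for single genes, 1349 kept direction and call, 51 gained a call, 25 lost one and 33 changed sign. The cause was not tested in any case where none is given. For the alternatives, the share of all tested genes called was not counted, so a changed count may also reflect a looser or stricter rule. Using the mean of both DMSO groups in place of the larger p gave 17 genes higher at 1 nM, 12 sterol enzymes higher at 1 nM, 2 fatty acid genes higher at 1000 nM, 1 gene higher at 0.3 nM, 1 lower at 30 nM, 1 lower at 100 nM, 2 lower at 1000 nM and 2 other pathway genes lower at 1 nM. DMSO of chip 1 alone gave 12 sterol enzymes higher at 1 nM, 1 gene lower at 30 and 1 at 100 nM, 2 lower at 300 nM, 2 lower at 1000 nM, and a sterol median of 0.61 at 1000 nM. DMSO of chip 2 alone gave 1 gene higher at 0.3 nM, 2 fatty acid genes higher at 1000 nM, 2 other pathway genes lower at 1 nM and a sterol median of 0.45 at 1000 nM. Summing same-numbered DMSO libraries gave 11 sterol enzymes higher at 1 nM, 1 gene lower at 30 and 1 at 100 nM, 2 lower at 1000 nM, and 2 other pathway genes lower at 1 nM.

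With no filter on low counts, 1 gene was higher at 0.3 nM, 1 lower at each of 10, 30 and 100 nM, 2 lower at 1000 nM, and 2 other pathway genes lower at 1 nM. With the filter of 1 CPM, the fatty acid median at 1000 nM was -0.065. Without the 3 libraries that stood apart, 1 gene was higher at 0.3 nM, 1 lower at 100 nM and 7 lower at 1000 than at 1 nM, 2 other pathway genes were lower at 1 nM, and the sterol median was 0.58 at 1000 nM and 0.39 at 1 nM.

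Same-numbered DMSO libraries were closest to each other. Whether the numbers pair samples between other groups was not settled. No pair of groups had every correlation of same-numbered deviations over 0.1, but the DMSO chips also missed this limit, with a smallest of 0.095. The limit therefore cannot decide the question. Between 3 and 300 nM the smallest was 0.081 and the mean 0.116, and the mean between the DMSO chips was also 0.116. In other pairs of groups the mean was negative, down to -0.165 between 30 and 300 nM. With the replicate block, 11 genes were higher at 1000 nM and 11 at 1 nM, and 0 were lower at 300 nM.

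Leaving out 1 library at a time gave 4 to 8 sterol enzymes higher at 1 nM (4 without replicate 1 of 1 nM), 1 to 3 fatty acid genes higher at 1 nM, 1 to 2 at 1000 nM (2 without replicate 3 of 1000 nM), 0 to 1 genes lower at 300 nM, 3 to 8 lower at 1000 than at 1 nM (8 without replicate 1 of 1 nM) and 0 to 1 other pathway genes lower at 1 nM (0 without replicate 2 of 1 nM or replicate 1 of DMSO chip 2). The sterol median ran from 0.44 to 0.58 at 1000 nM and from 0.38 to 0.59 at 1 nM, and the fatty acid median from -0.10 to 0.10 at 1000 nM.

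Single genes changed sign mostly near 0. At 1000 against 1 nM, MVK was -0.40 and STARD4 0.067 without the 3 libraries, and FADS1 was -0.011 with no filter and -0.035 with the 1 CPM filter. At 1000 nM, SQLE was -0.0068 with the 1 CPM filter and -0.21 against chip 2 alone, and NSDHL was 0.080 without the 3 libraries. At 1 nM, SREBF1 was 0.015 against chip 2 alone, SCAP -0.0059 without the 3 libraries, and FADS2 0.15 against chip 1 alone and 0.022 without the 3 libraries. With 1 library left out, log2 values at 1 nM ran from -0.072 to 0.21 for ACLY, -0.47 to 0.27 for FADS2 and -0.014 to 0.10 for SCAP. At 1000 nM they ran from -0.10 to 0.0034 for ACLY, -0.15 to 0.019 for DHCR7, -0.29 to 0.13 for ELOVL6, -0.45 to 0.073 for NSDHL, -0.16 to 0.15 for SQLE and -0.0018 to 0.31 for STARD4. Between 1000 and 1 nM they ran from -0.25 to 0.036 for ACLY, -0.35 to 0.29 for FADS1, -0.32 to 0.36 for MVK, -0.20 to 0.33 for NSDHL and -0.23 to 0.074 for STARD4. In a fit of the compared libraries alone, SQLE at 1000 against 1 nM had an adjusted p of 0.0681. SQLE, ELOVL6, LSS and ACSS2 had the fewest counts, so counting error weighs most on their values. Whether depth, the amplicon or low expression lies behind the low counts was not tested.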
